A study of Mus musculus with 2 samples.

Results

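The 9 genes described here encode basic helix-loop-helix (bHLH) transcription factors of neural differentiation: the proneural and neuronal factors *Neurod1*, *Neurod2*, *Neurog1* and *Neurog2*, the oligodendrocyte lineage factors *Olig1* and *Olig2*, and the E proteins *Tcf3*, *Tcf4* and *Tcf12*, with which they pair. They were chosen by name, with earlier results of these data known. Their m6A sites are all positions listed on the gene's own strand inside its GENCODE M21 interval on GRCm38. They are 9 of 21951 protein-coding genes and held 65 of the 79355 sites of the cerebellum and 326 of the 188295 sites of the cerebrum. Counted over both lists, 356 of 219409 positions lay in these genes, and 35 of the 48241 positions that both lists share.

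The RNA came from the cerebellum and the cerebrum of 1 female P0 mouse, as the study's methods have it. It was of the F1r hybrid with a C57BL/6J mother and a PWK/PhJ father. The methods describe both poly(A)+ and ribo-depleted RNA and do not say which was used for these libraries. Each tissue gave 1 library, and the methods describe the same treatment for both. In GLORI, glyoxal and nitrite deaminate adenosine, so that it is read as G, while an adenosine that carries m6A resists and is still read as A. The lists give the positions that were kept at a rate over 0.1 with more than 8 reads, without those values, so a position missing from a list has no known level and the depth behind a listed one is unknown.

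bHLH factors bind DNA as dimers, with a basic region that contacts an E-box and a helix-loop-helix region that holds the partners together. Tissue-restricted members such as the Neurog, Neurod and Olig proteins usually bind as heterodimers with the broadly expressed E proteins. In the developing brain the Neurog factors commit progenitors to the neuronal fate, Neurod factors act later as neurons differentiate, and Olig factors act in the progenitors of oligodendrocytes and of some neurons. *Tcf3*, *Tcf4* and *Tcf12* here are the E protein genes, not the Wnt effector genes *Tcf7l1* and *Tcf7l2* that share some of their older names.

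In the libraries as a whole, 62.1% of those listed for the cerebellum and 46.7% of those for the cerebrum had the consensus DRACH (D stands for any base but C, R for a purine and H for any base but G, with the methylated A in the middle). The cerebellum list was 0.421 times as long as the cerebrum list. The gene lists set beside the tissue labels followed them as a whole. These lists were chosen with earlier results of these data known, so they are no independent check of the labels. Of 10 hindbrain genes, 7 had a site in the cerebellum and 4 in the cerebrum (51 and 7 exonic DRACH sites). More exonic DRACH sites were in the cerebellum for 6 of them, among them *En1* and *En2*, and in the cerebrum for 1, *Gbx2*, with 3 without any. Of 12 forebrain genes, 4 had a site in the cerebellum and 12 in the cerebrum (33 and 196 exonic DRACH sites). All 12 had more exonic DRACH sites in the cerebrum, the direction of 80.5% of coding genes with such a site. Of 7 genes of vessels, meninges and microglia, 3 had a site in the cerebellum and 5 in the cerebrum, with 12 and 19 exonic DRACH sites. Differences between the lists below are differences between 1 library and another, and fewer cells of a type, less RNA per cell and lower methylation cannot be told apart in them.

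A site was listed for 6 of the 9 genes in the cerebellum and for 8 in the cerebrum, whereas 41.2% and 57.4% of all protein-coding genes had one. The missing genes were *Neurod1*, *Neurog1* and *Neurog2* in the cerebellum and *Neurog1* in the cerebrum. The cerebrum list held more exonic DRACH sites than the cerebellum list for 7 of the 8 genes with such a site, and as many for *Olig1*. This is the direction of 80.5% of the 9616 coding genes with a site of this kind, so it is not particular to these genes. Counted on 1 fixed transcript per gene, DRACH sites in the cerebellum numbered 0.361 times those in the cerebrum over the 9 genes, 0.25 times over the Neurod, Neurog and Olig genes and 0.489 times over the E proteins. Over all coding genes the same ratio was 0.586.

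**Figure D1:**
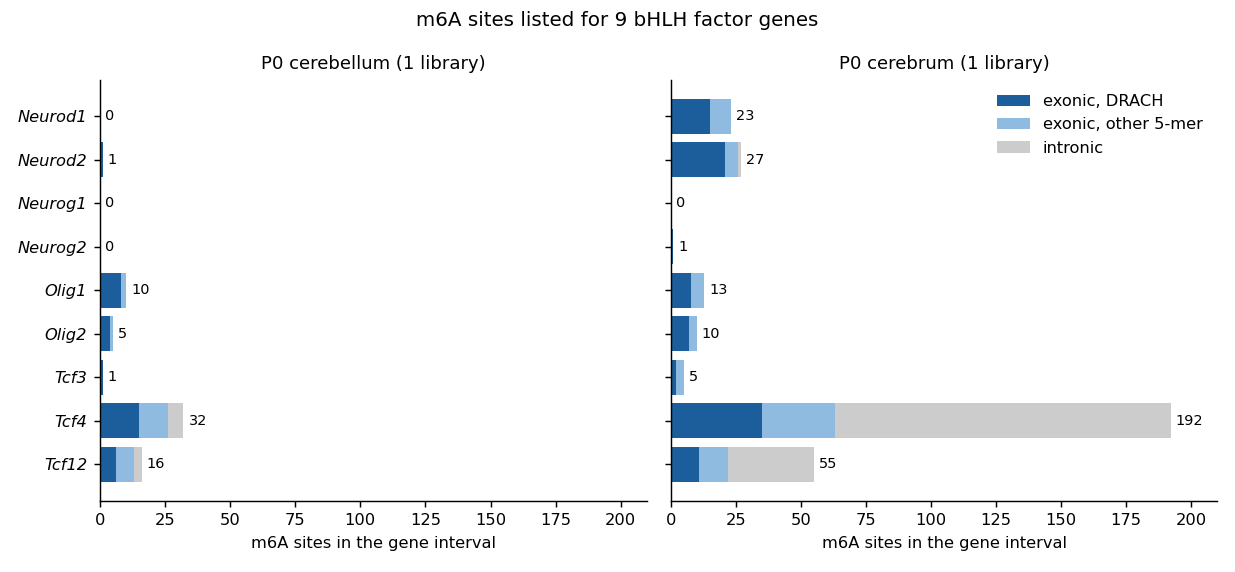
Number of m6A sites listed in each gene interval (horizontal axis, sites) in the cerebellum (left) and the cerebrum (right), 1 library each, split into exonic DRACH sites, exonic sites with another 5-mer and intronic sites. *Neurod1* goes from 0 to 23 sites and *Neurod2* from 1 to 27, *Olig1* has 10 and 13, and most of the 192 *Tcf4* sites in the cerebrum are intronic.

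*Neurod1*, which drives the differentiation of cerebellar granule neurons and of other neurons, had 23 sites in the cerebrum and none in the cerebellum. The gene lies at chr2:79452521-79456751 on the minus strand, with its whole coding sequence in the second of 2 exons. Of the cerebrum sites, 18 lay in the coding sequence and 5 in the 3′UTR, and 15 had DRACH, 13 of them in the coding sequence. Genes with many cerebrum sites rarely lacked one in the cerebellum: of 2433 coding genes with at least 10 exonic DRACH sites in the cerebrum, 60 had none in the cerebellum, which is 2.47%. *Neurod1* was the only such gene among the 4 members with at least 10 (*Neurod1*, *Neurod2*, *Tcf4* and *Tcf12*), and the limit of 10 was set after the counts had been seen. The other 684 coding genes with 13 to 17 DRACH sites on their transcript in the cerebrum had a median of 9 in the cerebellum. The interval of *Neurod1* lies inside that of *Cerkl* on the same strand, but no exon of *Cerkl* covered any of the 23 sites, and the rest of *Cerkl* held no cerebellum site and 1 cerebrum site.

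*Neurod2*, a factor of differentiating and maturing cortical neurons, had 27 sites in the cerebrum and 1 in the cerebellum. It lies at chr11:98325415-98329648 on the minus strand and, like *Neurod1*, has its coding sequence in the second of 2 exons. In the cerebrum 12 sites were in the coding sequence, 14 in the 3′UTR and 1 in the intron, and 21 exonic sites had DRACH. The other 380 coding genes with 19 to 23 DRACH sites in the cerebrum had a median of 13.0 in the cerebellum, and 2.63% of them had 1 or none. So the genes of both Neurod factors were listed densely in one tissue and almost not at all in the other.

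The single *Neurod2* site of the cerebellum was also listed in the cerebrum and lay at the very end of the coding sequence, in the asparagine codon 383 that precedes the stop codon, 2 nt before the stop. A second site, listed in the cerebrum alone, was the second base of the 3′UTR, 6 nt further on, so that the stop codon lay between both. The stretch is shown because it holds the only position of either Neurod gene found in both tissues, with both methylated adenosines in capitals (5′ to 3′ on the transcript strand, GRCm38):
Neurod2 stop codon, chr11:98327175-98327197: tttccataActgagAcctcgcgc

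The coding sequences of *Neurod1* and *Neurod2* could be set side by side, since 198 of 347 aligned residues (57.1%) were identical. Of the 18 coding sites of *Neurod1*, 4 fell on a base whose aligned base in *Neurod2* was a site too, and 7 fell in a codon whose aligned codon held a site at any base. The pairs lay in the asparagine codons 148 and 169, the threonine codons 171 and 192, the aspartate codons 263 and 290 and the histidine codons 302 and 329. They are printed with the 5-mer around the site in capitals, because they show 2 genes listed at the same base with and without the same flanks:
Neurod1 codon 148, chr2:79454585-79454605: ttggccaaGAACTacatctgg
Neurod2 codon 169, chr11:98327821-98327841: ctggccaaGAACTacatctgg
Neurod1 codon 171, chr2:79454517-79454537: cttcgtacAGACGctctgcaa
Neurod2 codon 192, chr11:98327753-98327773: ctacgtgcAGACTctgtgcaa
Neurod1 codon 263, chr2:79454240-79454260: cccctaacTGACTgcaccagc
Neurod2 codon 290, chr11:98327458-98327478: gctagcccGGACTacaacagc
Neurod1 codon 302, chr2:79454123-79454143: tttaccatGCACTaccctgca
Neurod2 codon 329, chr11:98327341-98327361: tactctatGCACTactcggcg

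In the first pair 20 of 21 bases were the same and both 5-mers were GAACT. In the third pair only 12 of 21 bases were the same, while TGACT and GGACT both fit DRACH. The fourth pair was GCACT in both genes, which misses DRACH at its second base, and in the second pair AGACG of *Neurod1* missed it at the last base while AGACT of *Neurod2* fit. The longest stretch shared by both spliced transcripts was 25 nt, or 37 nt once every A is read as G, as in the treated RNA. How reads from such stretches were placed was not tested.

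Not every shared motif was a site in both genes. The aligned coding sequences held 6 bases with DRACH in both, of which 2 were listed in both genes, 1 in *Neurod1* alone, 1 in *Neurod2* alone and 2 in neither. The one in *Neurod1* alone was the threonine codon 142. Where a paralog lacked the motif, a neighbouring base was sometimes used: codon 194 of *Neurod1* is a threonine listed at its first base in GGACT, and the aligned codon 215 of *Neurod2* is an asparagine listed at its second base in TAACT. Codons 191 and 212, and codons 288 and 315, likewise held sites at different bases. None of the other paralog pairs had a base listed in both genes. The Olig pair shared 0 DRACH bases, the Neurog pair 3, and the E protein pairs 5 to 13, all listed in neither gene.

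**Figure D2:**
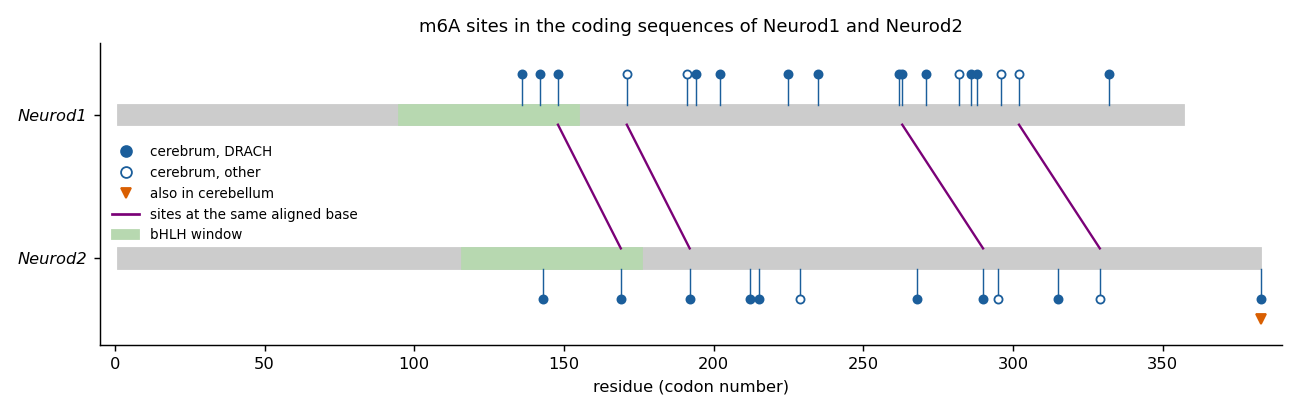
Sites in the coding sequences of *Neurod1* (top) and *Neurod2* (bottom) by residue number. Filled circles are DRACH sites and open circles other 5-mers of the cerebrum, the triangle marks the only site also listed in the cerebellum, purple lines join the 4 aligned bases listed in both genes, and green marks the window around the bHLH domain. Sites run from codon 136 to codon 332 of the 357 in *Neurod1* and from codon 143 to the last codon, 383, in *Neurod2*.

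The bHLH domain itself held listed DRACH adenosines in some genes and not in others, with few such adenosines in each. In a window from 15 residues before to 45 after the start of the basic-region pattern, *Neurod1* had 6 DRACH adenosines, of which 3 were listed in the cerebrum (codons 136, 142 and 148). *Neurod2* had 3, of which 2 were listed (codons 143 and 169), and *Olig1* had 3, of which 1 was listed in the cerebrum and 2 in the cerebellum. None was listed of 2 in *Olig2*, 1 in *Neurog2*, 4 in *Tcf3*, 1 in *Tcf4* and 5 in *Tcf12*, and the window of *Neurog1* held no DRACH adenosine. The window of the Neurod, Neurog and Olig genes lies in the exon that holds their whole coding sequence, and that of the E proteins in an internal exon under 400 nt. Over all coding genes, coding sequences within 1 exon had 21.3% of DRACH adenosines listed in the cerebrum and 14.2% in the cerebellum. In internal exons under 400 nt the shares were 1.24% and 0.676%. With so few adenosines per window, an empty window is not shown to differ from these shares.

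*Neurog1* and *Neurog2*, which act earlier than the Neurod genes in dividing progenitors, had almost no sites. *Neurog1* (chr13:56250478-56252163, minus strand) had 0 of 21 DRACH adenosines listed in either tissue. *Neurog2* (chr3:127633135-127635631, plus strand) had 1 of 34 listed in the cerebrum and 0 in the cerebellum. That one site was GGACT, 79 nt into the 3′UTR, and is printed as the only site of the pair, with the 5-mer in capitals:
Neurog2 3′UTR, chr3:127634589-127634609: cacgccccGGACTccacttca

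*Olig1* alone, among the members with sites in both lists, had as many exonic DRACH sites in one as in the other. Counted with any 5-mer, it had 10 cerebellum sites against 13 cerebrum sites, 7 at the same positions. The gene is a single exon at chr16:91269772-91271933 on the plus strand and promotes oligodendrocyte maturation. It had 8 exonic DRACH sites in each list, 6 of them shared. Among the 1830 other coding genes with 6 to 10 DRACH sites in the cerebrum, the median in the cerebellum was 4, and 94.6% had 8 or fewer. Of its 28 DRACH adenosines 28.6% were listed in each tissue. This share was above that of 98.4% of coding genes with an exonic DRACH site in the cerebellum and 95.8% in the cerebrum.

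The shared *Olig1* sites nearest the stop codon were GGACA at 94 nt and AGACT at 104 nt into the 3′UTR, and those at 124, 867 and 1236 nt were shared as well. Inside the bHLH window the aspartate codon 109 was listed in both tissues and the asparagine codon 111, 6 nt downstream, in the cerebellum alone. The other *Olig1* positions of the cerebellum alone were a TGACT at 1093 nt and a GCAGG at 903 nt into the 3′UTR. One shared position lay outside DRACH, in the serine codon 47 within a run of TCATCC repeats. *Olig2*, needed for oligodendrocytes and motor neurons, had a site in the same 5-mer, in the serine codon 77, listed in the cerebellum alone. These stretches are printed to show that the pair near the domain sits in ordinary motifs and the serine codons do not (capitals mark both adenosines of the pair, or the 5-mer):
Olig1 codons 109 and 111, chr16:91270194-91270216: catgcaggAcctgaActtggcca
Olig1 codon 47, chr16:91270007-91270027: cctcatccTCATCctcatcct
Olig2 codon 77, chr16:91226620-91226640: gcttcaagTCATCttcctcca

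*Olig2* lies at chr16:91225457-91228677 on the plus strand and had 5 cerebellum sites and 10 cerebrum sites. All of its 7 DRACH sites were in the 3′UTR between 208 and 391 nt from the stop codon, and 4 of them were listed in both tissues. The coding sequence had 0 of 8 DRACH adenosines listed, while the 3′UTR had 4 of 21 in the cerebellum and 7 of 21 in the cerebrum. The shared sites formed a short cluster at 322, 326, 348 and 391 nt. This cluster was defined by the shared sites, and DRACH sites of the cerebrum alone lay upstream of it at 208, 221 and 290 nt. Its first 2 sites lie 4 nt apart in overlapping motifs, and all of its sites are shown:
Olig2 3′UTR, 322 and 326 nt, chr16:91227685-91227705: gtctaaaaActaActttccgg
Olig2 3′UTR, 348 nt, chr16:91227709-91227729: acaaagatTGACTccctgtct
Olig2 3′UTR, 391 nt, chr16:91227752-91227772: actgcactTGACTtctttccc

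*Tcf3*, the E protein gene at chr10:80409514-80433647 on the minus strand, had 1 site in the cerebellum and 5 in the cerebrum. Only 2 had DRACH, both in the 3′UTR, and the GAACT at 210 nt was listed in both tissues. It is one of the least listed members for its motifs, with 2 of 50 DRACH adenosines listed in the cerebrum (4%). The median over coding genes with an exonic DRACH site there was 6.90%. *Tcf12*, at chr9:71842688-72111871 on the minus strand, had 16 and 55 sites, of which 6 and 11 were exonic with DRACH. All of the latter were in the 3′UTR, in 2 groups at 66 to 377 nt and at 1495 to 1627 nt from the stop codon. The *Tcf12* sites shared by both tissues and nearest the stop codon were AAACT at 137 nt and AGACT at 282 nt:
Tcf3 3′UTR, 210 nt, chr10:80409912-80409932: gttaaccaGAACTggaaacaa
Tcf12 3′UTR, 137 nt, chr9:71846425-71846445: gaaaccagAAACTcatatgta
Tcf12 3′UTR, 282 nt, chr9:71846280-71846300: acaatcagAGACTgtctcatc

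*Tcf12* also had 3 coding sites outside DRACH that both lists held: CCAGC in the serine codon 296 of exon 11, and TCAGT and CAATG, 7 nt apart, in the serine codon 499 and the asparagine codon 501 of exon 17. Of the 5 exonic positions in the cerebellum alone, 1 was in codon 79, 1 in an exon of another isoform and 3 in the 3′UTR, at 165, 355 and 1585 nt. The last of these, a GAACT, was the only one with DRACH. The pair in exon 17 is shown because it was listed in both tissues without the consensus (capitals mark both adenosines):
Tcf12 exon 17, chr9:71858912-71858935: attcagtcAgtctcaAtggcaatc

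Listed DRACH adenosines in coding sequence came from *Neurod1*, *Neurod2* and *Olig1*, while *Olig2* (0 of 8), *Neurog1*, *Neurog2* (0 of 8) and the E proteins had none. Over members with an exonic DRACH site in the cerebrum, 24 of 61 coding DRACH adenosines of the Neurod, Neurog and Olig genes were listed (39.3%, 95% Wilson interval 28.1% to 51.9%), 22 of them in *Neurod1* (13 of 23) and *Neurod2* (9 of 15). Over all such genes whose coding sequence lies within 1 exon the share was 21.3% (20.6% to 21.9%). Of the 132 coding DRACH adenosines of *Tcf3*, *Tcf4* and *Tcf12*, none was listed in either tissue, which allows a share of up to 2.27%. The E proteins have 18 to 19 coding exons, and 130 of these adenosines lie in internal exons under 400 nt, where 1.24% were listed over all coding genes in the cerebrum and 0.676% in the cerebellum. The limit that 0 of 130 allows, 2.31%, lies above both of these shares, so a difference from short internal exons in general was not detectable. The intervals cover counting error over sites only, and all shares depend on how well each transcript was covered.

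In the cerebellum the genes that enter the share were others, since among the 6 only *Neurod2*, *Olig1* and *Olig2* had an exonic DRACH site there. Their coding sequences had 3 of 30 DRACH adenosines listed (10%, 3.46% to 25.6%), against 14.2% over all coding sequences within 1 exon. No 5′UTR site was listed for the 6 genes. Over the 5 of them with an exonic DRACH site in the cerebrum this was 0 of 24 DRACH adenosines, which allows up to 12.5%. The 5′UTR share over all coding genes in the cerebrum, 5.12%, lies below this limit, so a difference was not detectable. Within the E proteins the share also went with the distance from an exon junction. Closer than 100 nt to a junction 3 of their 145 DRACH adenosines were listed in the cerebrum (2.07%), and further away 42 of 232 (18.1%). Over all coding genes these shares were 2.13% and 13.3%.

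**Figure D3:**
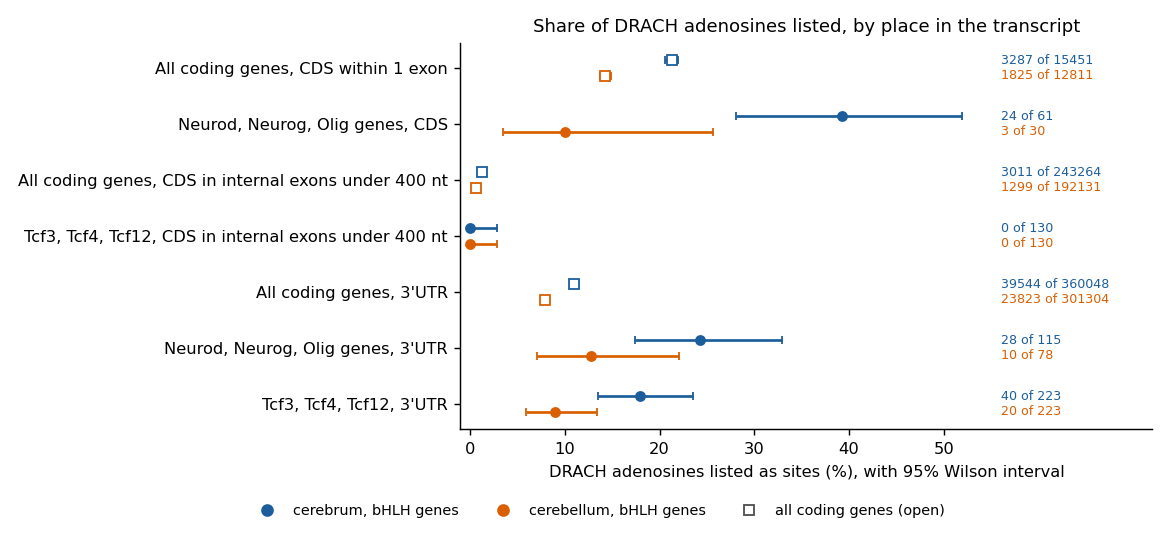
Share of DRACH adenosines that were listed as sites (horizontal axis, percent), by place in the transcript, for the 6 Neurod, Neurog and Olig genes, the 3 E proteins and all coding genes with an exonic DRACH site (open squares). Blue is the cerebrum and orange the cerebellum, bars are 95% Wilson intervals, and the counts stand at the right. The coding sequences of the first group reach 39.3% in the cerebrum and 10% in the cerebellum, and those of the E proteins stay at 0.

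In the 3′UTR of the cerebrum the pooled shares of both groups were above that of coding genes as a whole, which did not hold for every member. In the cerebellum both pooled shares over the whole 3′UTR were higher too, but their intervals included the share over coding genes. The Neurod, Neurog and Olig genes had 28 of 115 DRACH adenosines listed (24.3%, 17.4% to 32.9%) and the E proteins 40 of 223 (17.9%, 13.5% to 23.5%), against 11% over all coding genes. *Neurod1* (2 of 22, 9.09%) and *Neurog2* (1 of 15, 6.67%) were below that. In the cerebellum the shares were 12.8% (7.12% to 22%) and 8.97% (5.88% to 13.4%), against 7.91%. In the first 500 nt after the stop codon the shares were 42.5% (28.5% to 57.8%) and 37.2% (24.4% to 52.1%), against 22.7% in the cerebrum, and in the cerebellum 26.9% (13.7% to 46.1%) and 16.3% (8.12% to 30.0%), against 17.6%. Beyond 1500 nt the E proteins had 19 of 141 listed in the cerebrum (13.5%, 8.80% to 20.1%), against 5.09%, and 16 of those 19 were in *Tcf4*. In the cerebrum the median distance from the stop codon of the listed 3′UTR DRACH sites was 369.5 nt in the first group. It was 1226.5 nt in the E proteins, where 27 of the 40 sites were in *Tcf4*, with a median of 1732 nt. *Tcf12* had a median of 336 nt and *Tcf3* of 179.5 nt, so the longer distance was that of *Tcf4*.

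The codon position of the coding DRACH sites was recorded as well, since the motif meets the reading frame. Of the 25 sites of the Neurod and Olig genes in either tissue, 14 were the second base of a codon, 8 for aspartate and 6 for asparagine. A further 5 were the first base of a threonine codon and 6 the third base of a glycine, lysine or glutamate codon. The motif itself leaves no choice beyond threonine at the first base and asparagine or aspartate at the second.

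**Figure D4:**
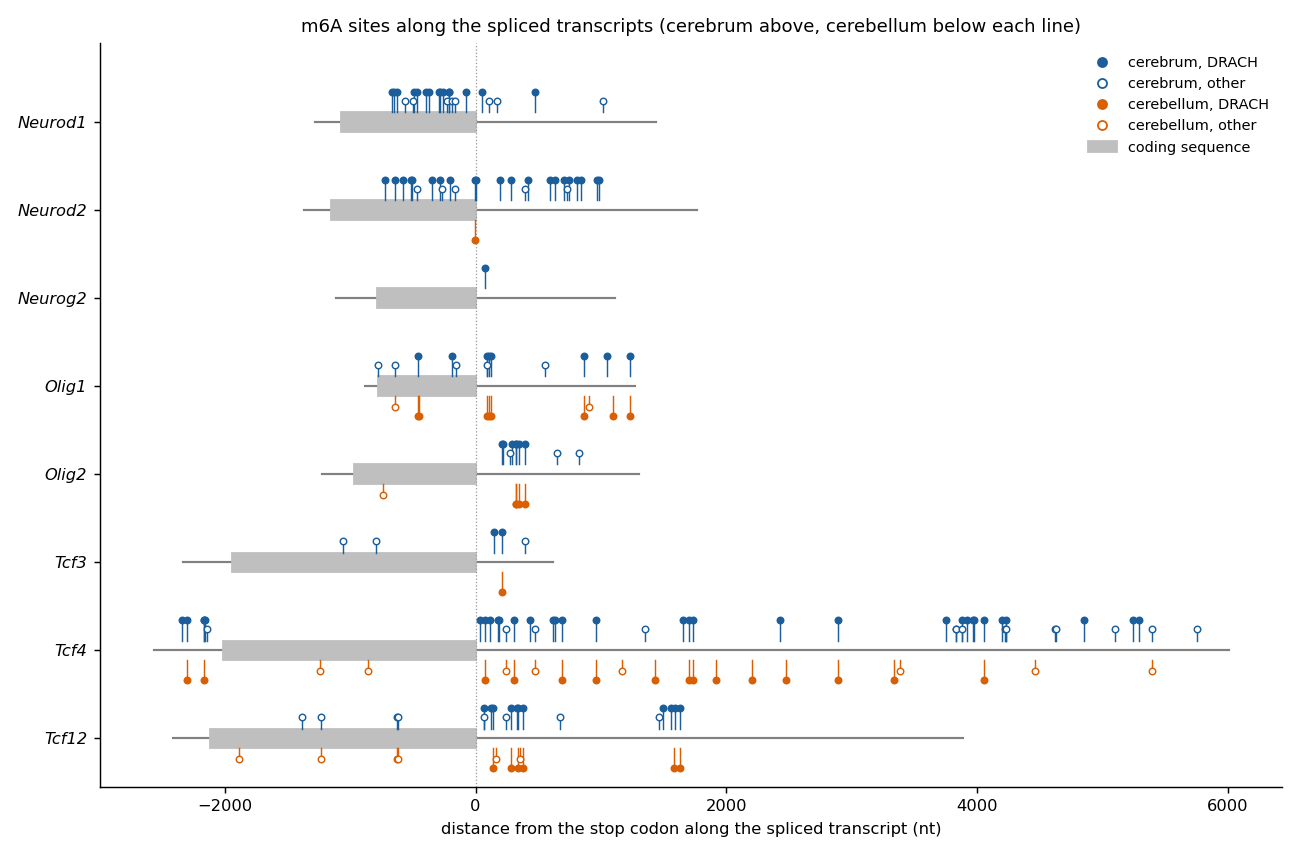
Sites along the spliced transcript of the 8 members with a site, by distance from the stop codon in nt (dotted line at 0). Gray boxes are coding sequences, lines are UTRs, blue marks above each line are the cerebrum and orange marks below it the cerebellum, and filled circles have DRACH. The *Neurod1* and *Neurod2* marks of the cerebrum fill the second part of the coding sequence, those of *Olig2* cluster in the 3′UTR in both tissues, and the coding sequences of *Tcf3*, *Tcf4* and *Tcf12* carry open circles only.

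*Tcf4*, the E protein gene with the most sites, lies at chr18:69343356-69689079 on the plus strand and spans 345.7 kb with a 3′UTR of 6007 nt. The cerebellum list held 32 of its positions, the cerebrum list 192, and 13 were in both. Exonic DRACH sites numbered 15 and 35, with 10 shared. Of these, 13 and 27 lay in the 3′UTR, from 39 to 5293 nt from the stop codon, and the shared ones nearest the stop codon were at 79 and 309 nt. Over its principal transcript 7.81% of 192 DRACH adenosines were listed in the cerebellum and 16.7% in the cerebrum, shares above those of 69.1% and 82.8% of coding genes with a site.

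*Tcf4* was the only member with sites in the 5′UTR. The first exon of its principal transcript held 6 sites in the cerebrum within 196 nt, 5 of them with DRACH, and 2 of these were also listed in the cerebellum. A further 2 DRACH sites, 5 nt apart, lay in the first exon of a shorter isoform that starts inside the gene. The 3 exonic sites outside DRACH that both lists held were in the 3′UTR, at 242, 475 and 5397 nt. Another 13 exonic sites were listed in the cerebellum alone. Of these, 5 had DRACH and were in the 3′UTR, at 1432, 1917, 2207, 2479 and 3340 nt, so the lists interleaved along the 3′UTR rather than one holding the other.

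Introns made up much of the difference between the tissues in *Tcf4* and *Tcf12*. *Tcf4* had 6 intronic cerebellum sites and 129 intronic cerebrum sites, and *Tcf12* 3 and 33. Per megabase of gene this was 17.4 and 373.1 for *Tcf4* and 11.1 and 122.6 for *Tcf12*. Of the *Tcf12* positions, 2 of the cerebellum and 11 of the cerebrum were on exons of other genes annotated on the same strand inside its introns, among them the only one in both lists, and to which transcript these belong cannot be told apart. These positions were left out of the intronic counts that follow but kept in the totals. *Tcf12* introns then held 1 of 16 cerebellum sites (6.25%) and 22 of 55 cerebrum sites (40%). *Tcf4* had no such position, and its introns held 18.8% and 67.2%. Over all coding genes the shares were 17% and 24.8%. These and the other shares over all coding genes below may include such positions. None of the 7 cerebellum and 152 cerebrum sites left over the members was in both lists. Over all coding genes 10.9% and 3.17% of intronic sites were, so such positions were seldom shared in general. DRACH made up 0 of the 7 and 18 of the 152 (11.8%), whereas 62.5% and 61.3% of the members' exonic sites had it. Over all coding genes 14.6% and 12.4% of intronic sites had DRACH, so the low share belongs to intronic sites in general. The most populated intron was the longest, intron 3 of *Tcf4* (112.7 kb), with 3 cerebellum sites and 43 cerebrum sites.

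**Figure D5:**
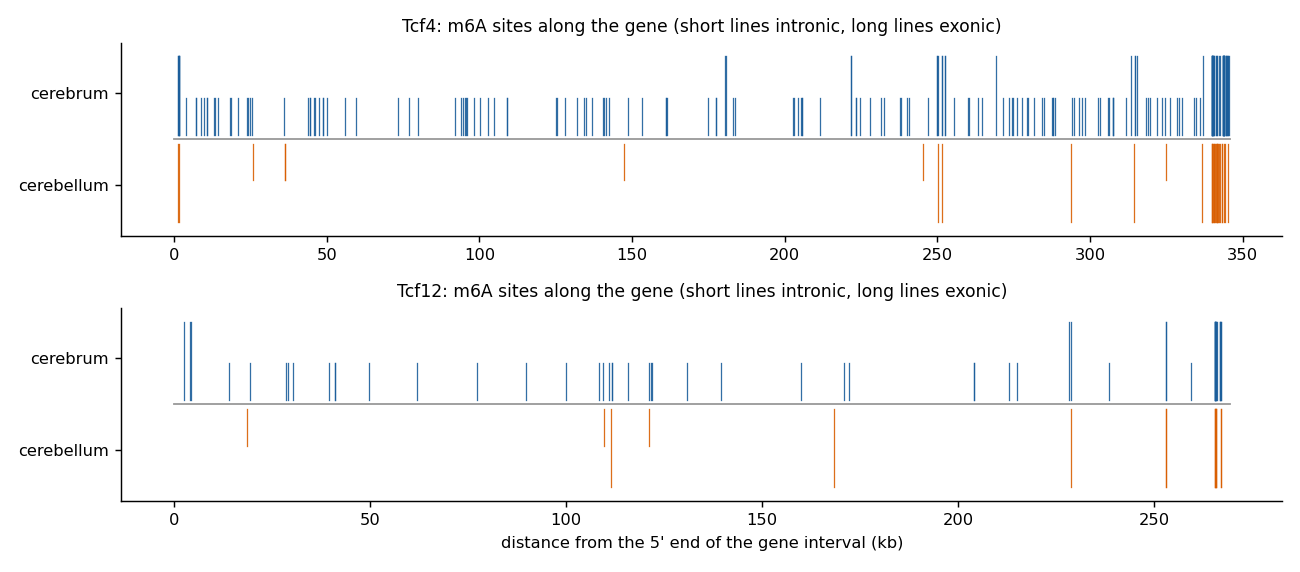
Sites along the gene intervals of *Tcf4* (top) and *Tcf12* (bottom) by distance from the 5′ end of the gene in kb. Blue lines above are the cerebrum and orange lines below the cerebellum, and short lines are intronic and long lines exonic. The intronic lines of the cerebrum spread over the whole gene, while the exonic lines of both tissues pile up at the 3′ end.

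The tissues shared a large part of the members' cerebellum sites and a small part of the cerebrum sites. Of the members' DRACH sites, 27 were in both lists, which is 77.1% of the 35 in the cerebellum (61.0% to 87.9%) and 22.9% of the 118 in the cerebrum (16.2% to 31.2%). Over all DRACH sites these shares were 81.0% and 45.3%. In the Neurod, Neurog and Olig genes 11 of 13 cerebellum DRACH sites and 11 of 53 cerebrum DRACH sites were shared, and of the latter 15 came from the exons of *Neurod1* and 21 from those of *Neurod2*. The E proteins shared 16 of 22 and 16 of 65.

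Other bHLH genes of the same pathways were counted as a list of 20, covering proneural factors, Neurod relatives, Hes and Hey repressors and the Id inhibitors, which lack a basic region and sequester E proteins. In the cerebellum 10 of them had a site, in the cerebrum 14, with 38 and 88 exonic DRACH sites. More such sites were in the cerebrum for 9 genes and in the cerebellum for 2, with 1 equal and 8 without any. *Neurod6*, a factor of cortical projection neurons, had 1 and 13 exonic DRACH sites, 12 of the 13 in the coding sequence, and *Bhlhe22*, a repressor in cortical neurons, had 1 and 21. *Id4* had 16 and 15 and *Id2* 7 and 8, with almost all of them in the 3′UTR. *Neurod2*, *Neurod6* and *Bhlhe22* thus each had 1 site in the cerebellum against 13 to 21 in the cerebrum, while the Id genes had nearly equal counts, as *Olig1* did.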

How the data were processed

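The authors aligned reads to mm10 and to a copy of it with the PWK base at each SNP (PWK-mm10), called m6A sites with GLORI-tools and united the sets of each library. They deposited positions kept at a rate over 0.1 with more than 8 reads. The unit of the deposited files is a genomic position, with no rate or count beside it, and the read filter ties what is listed to expression.

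Positions were read on GRCm38 with GENCODE M21 gene models, while the study names GENCODE v26. A site was placed on the longest complete coding isoform that covers it. Shares of DRACH adenosines used 1 fixed transcript per gene (APPRIS principal) and genes with an exonic DRACH site. Distances count from the first or last base of the stop codon. Paralogs were aligned globally (BLOSUM62, gap costs -11 and -1). The bHLH window starts from a pattern of basic-region residues searched in the translated coding sequence. Intervals are 95% Wilson intervals, and 3 counts stand for a count of 0. No test between the tissues was possible with 1 library each.

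The members and gene lists were chosen with earlier results of these data known. Sites named one by one were those shared by both lists and nearest the stop codon (up to 2 per gene), exonic sites of the cerebellum alone, shared exonic sites outside DRACH, sites in the bHLH window, sites aligned between paralogs and sites without A in the reference. No sequence of *Tcf4* and no protein sequence is printed. Of the other bHLH genes, those with the most exonic DRACH sites were named, and 1 of them is not reported here. Python 3.11.15, numpy 2.4.6, pysam 0.24.0, Biopython 1.88, matplotlib 3.10.9 and samtools 1.23.1 were used. Tested on simulated data, 6000 sites drawn from GENCODE transcripts of 309 genes returned the base for 100%, DRACH for 100% and the region for 99.47%. This check used the fixed transcript of each gene, so the placement on the longest isoform or in introns was not tested.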

Additional observations from a re-analysis of the deposited data

How the results depend on the processing

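Of 34 recomputed values, 19 moved by less than their counting interval and 15 by more. Restricting the members' sites to exons left 163 of the 326 cerebrum sites. The share of sites in both lists, 53.8% in the cerebellum and 10.7% in the cerebrum, became 77.1% and 22.9% over DRACH sites, and 20.9% in the cerebrum over exonic sites. The DRACH share, 53.8% and 36.2%, was 41.5% and 29.1% with RRACH, 77.1% in each list over sites found in both, and 61.3% over exonic cerebrum sites. The 3′UTR share of sites on coding transcripts was 73.6% in the cerebellum and 85.7% over DRACH sites, and 65.8% in the cerebrum and 76.5% over sites found in both lists. Within 200 nt of the stop codon lay 13.2% and 18.1%, and within 400 nt 34% and 40.3%. The share of DRACH adenosines listed, 7.11% and 16.8%, was 11.3% and 26% without the E proteins. Each of these alternatives changes which sites or genes are counted. No paired analysis was possible because each tissue has 1 library and no test was made. Depth is unknown, so an empty coding sequence or gene is not shown to be unmethylated.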

Other observations

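Sites outside DRACH were looked at on the coding transcripts of the 9 genes, which leaves out exons of other isoforms without a complete coding sequence. The Neurod, Neurog and Olig genes had 23, of which 14 missed the consensus at a single base and 1 was in both lists. The E proteins had 38, of which 19 missed it at a single base and 6 were in both lists. All 11 coding sites of the E proteins were among them. In *Neurod1* the CAACT of codon 282 and the GCACT of codon 302 are examples with 1 mismatch, and the *Tcf3* site of codon 385, CCATG, 7 nt from an exon junction, is one with 4.

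Some coding sites of the Neurod genes lay within 10 nt of each other. *Neurod1* had TAACT and TGACT 4 nt apart in codons 262 and 263, and AAACA and GAACC 6 nt apart in codons 286 and 288. *Neurod2* had AAACT and TAACT 9 nt apart in codons 212 and 215. The lists do not tell whether both adenosines of a pair were methylated on the same molecule.

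Of the 356 positions, 1 had no A on the gene's strand in GRCm38, an intronic *Tcf4* position of the cerebrum. The whole cerebellum list held 209 positions of this kind and the whole cerebrum list 364.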
